A study of Mus musculus with 2 samples.

Results

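De novo lipogenesis turns the carbon of glucose and acetate into fatty acids, and 10 genes of this pathway were examined in visceral adipose tissue (VAT) among the 56980 genes of the count matrices. They were chosen by symbol from knowledge of the pathway, and each symbol was found in both libraries. The series provided here holds single-nucleus RNA sequencing (snRNA-seq) of gonadal fat from 2 female C57BL/6J mice aged 2 months, with no treatment named in the labels. Each mouse gave 1 library, and the libraries of this single group, VAT young, are named replicate 1 and replicate 2. Other depots and ages were not analysed here. The methods describe capture of nuclei from whole tissue on the Singleron GEXSCOPE system, whereas the sample descriptions name 10x Genomics and give adipocytes as the cell type. The measure is the number of unique molecular identifiers (UMIs), 1 per captured RNA molecule, of each gene in each nucleus. It covers nuclear RNA, spliced or not, and neither protein nor enzyme activity. With 1 group, the comparisons are between cell types and among adipocytes, and the 2 mice give the spread.

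The pathway starts from citrate, which is exported from the mitochondrion and split to acetyl-CoA by ATP citrate lyase (*Acly*), while acetyl-CoA synthetase (*Acss2*) makes acetyl-CoA from acetate. Cytosolic malic enzyme (*Me1*) supplies NADPH. Acetyl-CoA carboxylase makes malonyl-CoA, in the cytosol by the isoform of *Acaca* and at the outer mitochondrial membrane by that of *Acacb*, where malonyl-CoA blocks the entry of fatty acids for oxidation. Fatty acid synthase (*Fasn*) builds palmitate and *Elovl6* elongates it. *Srebf1* and *Mlxipl* encode SREBP-1 and ChREBP, the transcription factors that respond to insulin and to carbohydrate, and *Thrsp* encodes Spot 14, a small protein that modulates lipogenesis and is induced by thyroid hormone and carbohydrate.

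After filtering, 2833 nuclei with 8466237 UMIs were left in replicate 1 and 12225 nuclei with 48068273 UMIs in replicate 2. The median mitochondrial share was 6.20% in replicate 1 and 0.621% in replicate 2, so the libraries stood apart. They shared 85 of the called barcodes, 27 of them among the kept nuclei. The largest cluster, of 8538 nuclei, had all 7 adipocyte markers, *Adipoq*, *Plin1*, *Plin4*, *Cidec*, *Lipe*, *Adipor2* and *Pparg*, and none of the markers of FAPs (fibro-adipogenic progenitors), mesothelial or endothelial cells. It is called adipocyte-like and made up 67.7% of kept nuclei in replicate 1 and 54.2% in replicate 2. The remaining nuclei were mesothelial-like, FAP-like, immune, endothelial-like or smooth muscle-like. The lipogenic genes were left out of the features that drew these clusters. Of the mesothelial-like nuclei, 1073 formed a subcluster with 7 of 8 endothelial, 5 of 8 FAP, 4 of 8 mesothelial and 3 of 6 T and NK cell markers, led by *Igha*, *Ttn* and *Chl1*, so its identity is unclear. These nuclei are counted in the mesothelial-like values except where they are said to be left out.

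The members lie on chromosomes 2, 3, 5, 7, 9 and 11 of GRCm39, with *Acly*, *Acaca*, *Fasn* and *Srebf1* on chromosome 11. The longest gene was *Acaca* with 272 kb (chr11:84020476-84292477, plus strand) and the shortest *Thrsp* with 4.80 kb (chr7:97062139-97066937, minus strand). *Fasn* spans 19.3 kb (chr11:120696672-120715995, minus strand) and *Srebf1* 23.5 kb (chr11:60089913-60113407, minus strand). The other 6 members spanned 49.9 kb to 115 kb. Genes that overlap a member were low in adipocyte-like nuclei, and the highest of them, *Rai1* opposite to *Srebf1*, had 136 and 163 CPM (UMIs scaled to the same total in each sum) against 1835 and 888 for *Srebf1*.

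The promoters are shown because the members moved together among adipocytes, as described further on, and because known factors of the pathway bind such motifs. RefSeq tables of GRCm38.p6, an older build than that of the counts, held 14 promoter windows for the 10 members, each of 300 bases from 250 before to 50 after a gene start. The motifs searched on both strands were CCAAT (bound by NF-Y), GGGCGG (the GC box, bound by Sp1), CACGTG (an E-box, bound by USF factors) and TCACNCCAC (a sterol element, bound by SREBP). CCAAT was in 9 of the 14 windows, of 8 members, against 37.4% of all 32851 windows, and *Acaca* and *Elovl6* had none in theirs. GGGCGG was in 6 windows, of 5 members, against 35.7% of all windows. CACGTG was in 1 window, of *Mlxipl* (7.15% of all windows), and TCACNCCAC in 1, the second window of *Mlxipl* (1.24% of all windows). A match describes the letters and is no evidence of binding, and windows of 1 gene share their source. Below are the windows of *Fasn* (chr11:120824498-120824797, minus strand), which had 3 CCAAT matches with 2 of them overlapping, *Thrsp* (chr7:97417501-97417800, minus strand) with 2, *Acly* (chr11:100527951-100528250, minus strand) and *Me1* (chr9:86695865-86696164, minus strand) with 4 GC boxes each, and *Mlxipl* (chr5:135089640-135089939, plus strand), with the E-box. Each reads 5′ to 3′ along the gene's strand, with matches to the 4 motifs, on either strand, in capitals.
Fasn: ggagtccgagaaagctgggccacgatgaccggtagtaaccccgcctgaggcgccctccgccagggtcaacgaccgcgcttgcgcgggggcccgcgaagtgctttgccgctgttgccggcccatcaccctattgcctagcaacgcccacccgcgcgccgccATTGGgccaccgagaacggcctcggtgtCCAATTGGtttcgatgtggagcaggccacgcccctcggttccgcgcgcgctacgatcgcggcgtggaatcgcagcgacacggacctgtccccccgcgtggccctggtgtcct
Thrsp: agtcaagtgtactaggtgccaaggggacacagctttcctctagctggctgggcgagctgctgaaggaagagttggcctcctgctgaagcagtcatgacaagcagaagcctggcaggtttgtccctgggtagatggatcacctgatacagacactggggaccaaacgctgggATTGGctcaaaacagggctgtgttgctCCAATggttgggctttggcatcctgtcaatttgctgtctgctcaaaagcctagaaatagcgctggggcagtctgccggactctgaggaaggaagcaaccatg
Acly: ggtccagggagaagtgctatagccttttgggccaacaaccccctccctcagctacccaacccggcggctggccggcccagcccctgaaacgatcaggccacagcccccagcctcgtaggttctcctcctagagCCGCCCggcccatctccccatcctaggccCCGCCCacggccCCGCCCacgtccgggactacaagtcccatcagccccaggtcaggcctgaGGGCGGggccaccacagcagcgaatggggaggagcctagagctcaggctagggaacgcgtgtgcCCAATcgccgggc
Me1: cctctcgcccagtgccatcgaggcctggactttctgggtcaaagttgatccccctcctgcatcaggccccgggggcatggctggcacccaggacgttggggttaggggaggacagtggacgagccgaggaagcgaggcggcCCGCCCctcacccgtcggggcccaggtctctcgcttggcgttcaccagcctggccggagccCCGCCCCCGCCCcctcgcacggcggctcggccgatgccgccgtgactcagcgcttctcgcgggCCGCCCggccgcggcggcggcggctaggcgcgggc
Mlxipl: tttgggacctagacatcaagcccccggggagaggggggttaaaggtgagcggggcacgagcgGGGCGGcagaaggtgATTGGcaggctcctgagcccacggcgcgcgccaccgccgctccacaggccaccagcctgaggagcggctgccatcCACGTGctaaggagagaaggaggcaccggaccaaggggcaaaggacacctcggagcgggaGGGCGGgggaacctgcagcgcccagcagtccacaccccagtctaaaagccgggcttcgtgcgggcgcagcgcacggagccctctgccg

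All 10 lipogenic genes had their highest level in adipocyte-like nuclei in both mice. In adipocyte-like nuclei with at least 3000 UMIs, thinned to 3000, the members held 4.20% of UMIs in replicate 1 and 4.40% in replicate 2. Such nuclei numbered 837 in replicate 1 and 4749 in replicate 2, or 43.6% and 71.7% of the adipocyte-like nuclei there. Of each member's UMIs, 91.2% to 96.7% came from adipocyte-like nuclei, which held 77.0% and 75.1% of all UMIs. Levels below are CPM of the UMIs summed over the nuclei of a cell type, given for replicate 1 and then replicate 2. Nuclei are not replicates, so that n is 2 throughout.

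Among the suppliers of acetyl-CoA and NADPH, *Acly* stood at 4348 and 3882 CPM, *Acss2* at 3865 and 5029, and *Me1* at 5965 and 6763 in adipocyte-like nuclei. *Acss2* and *Acly*, which make acetyl-CoA from acetate and from citrate, exchanged order between the mice, with a ratio of *Acss2* to *Acly* UMIs of 0.889 and 1.30. *Acaca* had the most UMIs of all members, with 13064 and 16696 CPM, while its mitochondrial counterpart *Acacb* had 994 and 2016 CPM. *Fasn* was at 3814 and 2474 CPM and *Elovl6* at 1905 and 2224 CPM. *Srebf1* was at 1835 and 888 CPM, *Mlxipl* at 1558 and 1897 CPM and *Thrsp* at 3284 and 1862 CPM. These levels reflect gene length too and order the genes only per length. Per kb of exon, *Thrsp* had 1495 and 848 CPM, *Me1* 974 and 1104 and *Acaca* 710 and 908, and *Acacb* 97.6 and 198. *Acacb* was the lowest in replicate 1 and *Srebf1*, with 151, in replicate 2. Per kb of the whole gene, *Thrsp* had 684 and 388 CPM and *Fasn* 197 and 128, ahead of the other 8 members in both mice, with *Acacb* last at 9.51 and 19.3. The leading place of *Thrsp* per kb of exon did not hold in replicate 2, where *Me1* and *Acaca* were above it. *Elovl6* was below *Fasn* per kb of exon in replicate 1 (224 against 326) and above it in replicate 2 (262 against 211).

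In the other cell types each member stood far lower, and no library of any other type reached the lower of the 2 adipocyte values. *Acaca* fell from 14880 ± 2568 CPM (SD, n = 2) in adipocyte-like nuclei to 2749 ± 1103 in immune, 2581 ± 505 in smooth muscle-like, 2579 ± 1230 in FAP-like, 1463 ± 1146 in endothelial-like and 1184 ± 295 in mesothelial-like nuclei. In the mesothelial-like subcluster with endothelial markers *Acaca* was at 1832 ± 632 CPM, against 951 ± 204 in the other one. *Fasn* went from 3144 ± 948 CPM to 1111 ± 387 in immune nuclei and 789 ± 303 in mesothelial-like nuclei, with FAP-like, endothelial-like and smooth muscle-like nuclei between 840 and 889. *Thrsp* had the flattest profile of all, from 2573 ± 1005 CPM in adipocyte-like nuclei to 892 ± 319 in immune and 690 ± 395 in smooth muscle-like nuclei. For *Mlxipl*, 1727 ± 239 CPM in adipocyte-like nuclei stood over 461 ± 63.2 in immune and 250 ± 20.3 in mesothelial-like nuclei. *Srebf1* had 1361 ± 669 CPM against 407 ± 146 in immune and 242 ± 97.8 in mesothelial-like nuclei. Immune nuclei had the highest mean after adipocytes for 10 of 10 members and mesothelial-like nuclei the lowest for 9 of 10, the exception being *Thrsp*. Neighbours in this order below adipocytes overlapped within 1 SD for each of the 10 members.

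**Figure D1:**
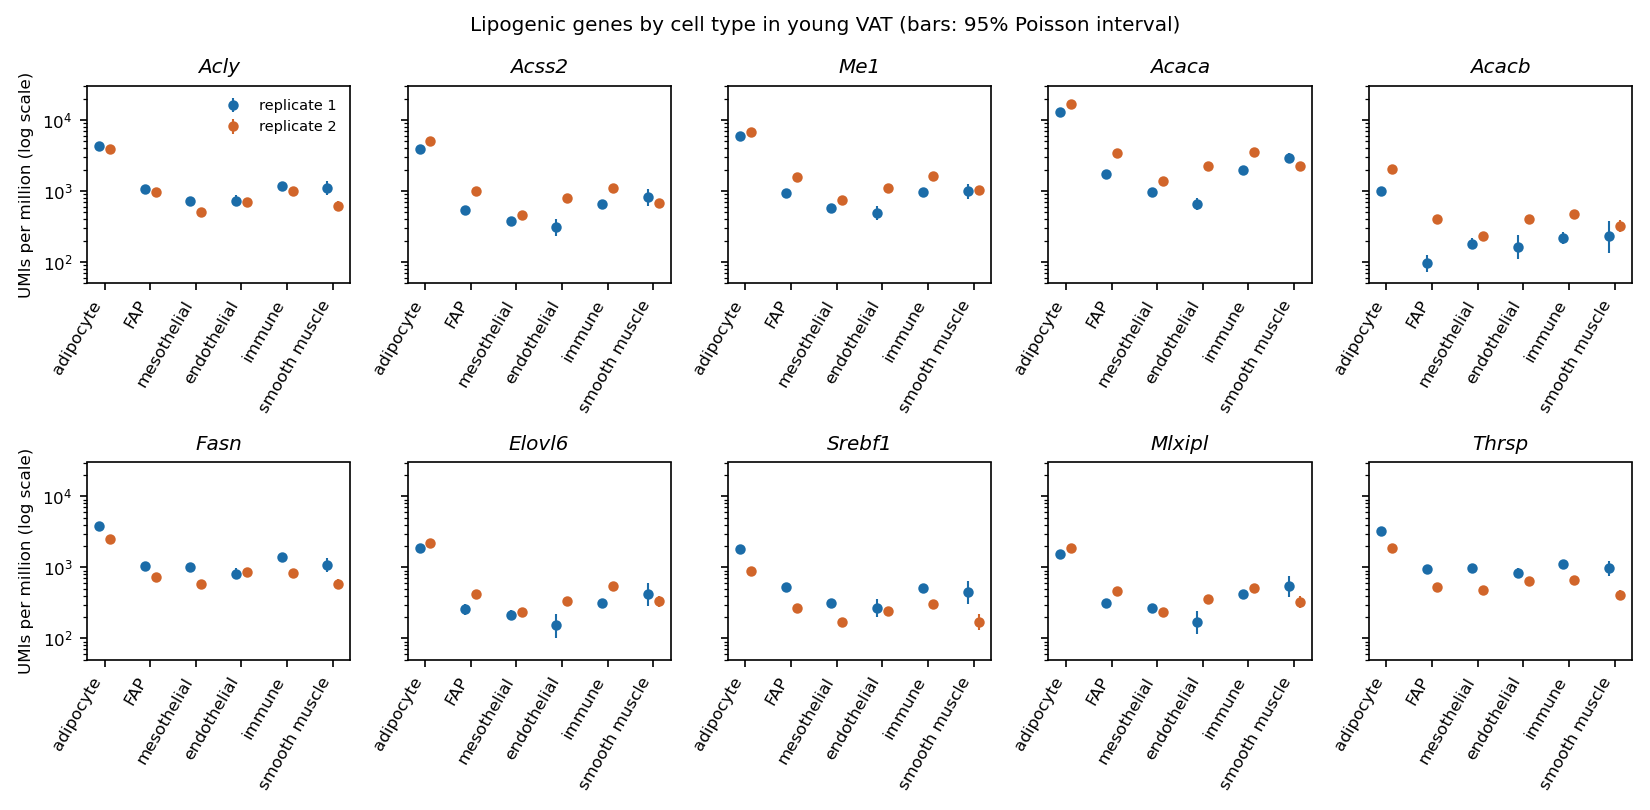
Level of each of the 10 lipogenic genes in CPM (log scale) in the 6 cell types, with 1 point for each of the 2 mice and bars for the 95% Poisson interval, which covers counting error only. Both adipocyte-like values lie above those of all other types for each gene, as for *Acaca* with 13064 and 16696 against at most 3529.

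The sums were compared with edgeR's quasi-likelihood test with the library as a block, over 13439 genes with Benjamini-Hochberg adjustment. All 10 members passed at an adjusted p under 0.05 as higher in adipocyte-like nuclei than in the mean of the other types, beside 29.3% of all genes tested. The largest log2 fold change was that of *Acaca*, 3.36 (SE 0.18, adjusted p = 7.5e-21), followed by *Acss2* with 3.22 (SE 0.16), *Me1* with 3.17 (SE 0.16) and *Elovl6* with 3.15 (SE 0.15). *Acacb* differed by 2.92, *Mlxipl* by 2.74, *Acly* by 2.73 and *Srebf1* by 2.49, with SE from 0.15 to 0.16. The smallest were *Fasn* with 2.23 (SE 0.16, adjusted p = 7.0e-17) and *Thrsp* with 2.19 (SE 0.15, adjusted p = 5.3e-17). The members' median of 2.83 lay beside 2.62 for the 7 markers that named the cluster and 0.00087 for all genes tested. With the library as a block, the p values rest only on how the differences between cell types varied between the 2 libraries.

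Each other cell type was also set against the mean of the rest, so that the high adipocyte values enter as part of that mean. Mesothelial-like nuclei had all 10 members lower (11.7% of genes tested were lower there and 23.6% higher), from *Acaca* at -1.498 to *Thrsp* at -0.49, and 9 lower with the subcluster that holds endothelial markers left out. Endothelial-like nuclei had 7 lower (5.77% of genes, and 9.84% higher), with *Acacb*, *Fasn* and *Thrsp* not passing, and smooth muscle-like nuclei 5 lower (2.81%, and 4.98% higher), *Acly*, *Me1*, *Fasn*, *Srebf1* and *Thrsp*. In FAP-like nuclei only *Acacb* passed, at -0.69 (edgeR adjusted p = 0.0147; 5.08% of genes were lower and 9.99% higher). Immune nuclei had 0 members that passed in either direction by edgeR, 0 at an unadjusted p under 0.05 and 0 by DESeq2, where 11.3% of genes were lower and 13.5% higher. These counts depended on the fit. By edgeR without the block, 0 members were lower in FAP-like, endothelial-like and smooth muscle-like nuclei (0, 6 and 0 at an unadjusted p under 0.05). In mesothelial-like nuclei 5 were lower in that fit. The counts also changed with the clustering, the mitochondrial limit and the removal of high doublet scores, as listed in the closing section. Under some of these settings the FAP-like and immune counts rose and the endothelial-like count fell to 0. In other clusterings some members were higher in endothelial-like nuclei.

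RNA released from broken cells gives UMIs in nuclei that do not make it, so the level left in the other types was set beside that of adipocyte markers. The median ratio of the members' level to that in adipocyte-like nuclei was 0.178 and 0.241 in FAP-like nuclei, against 0.250 and 0.244 for the 7 adipocyte markers. In mesothelial-like nuclei the members' median was 0.168 and 0.1204 against 0.188 and 0.148, and in endothelial-like nuclei 0.129 and 0.183 against 0.208 and 0.296. Immune nuclei had 0.244 and 0.254 against 0.259 and 0.272, and smooth muscle-like nuclei 0.242 and 0.159 against 0.380 and 0.193. The members' median lay below that of the adipocyte markers in all 5 types and both mice. Of single members, *Thrsp* was at 0.299 in mesothelial-like nuclei of replicate 1, above the highest marker there at 0.272. The markers themselves reached 0.532 (*Plin4* in smooth muscle-like nuclei of replicate 1) and 0.470 (*Adipoq* in endothelial-like nuclei of replicate 2). How much of the members' or of the markers' RNA in these types was made there was not tested. The ratios of single members reached 0.363 (*Fasn* in immune nuclei of replicate 1), and those of *Acaca* were the lowest in 7 of the 10 combinations of type and mouse. The highest member ratio was that of *Thrsp* in 6 of the 10 combinations of type and mouse.

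**Figure D2:**
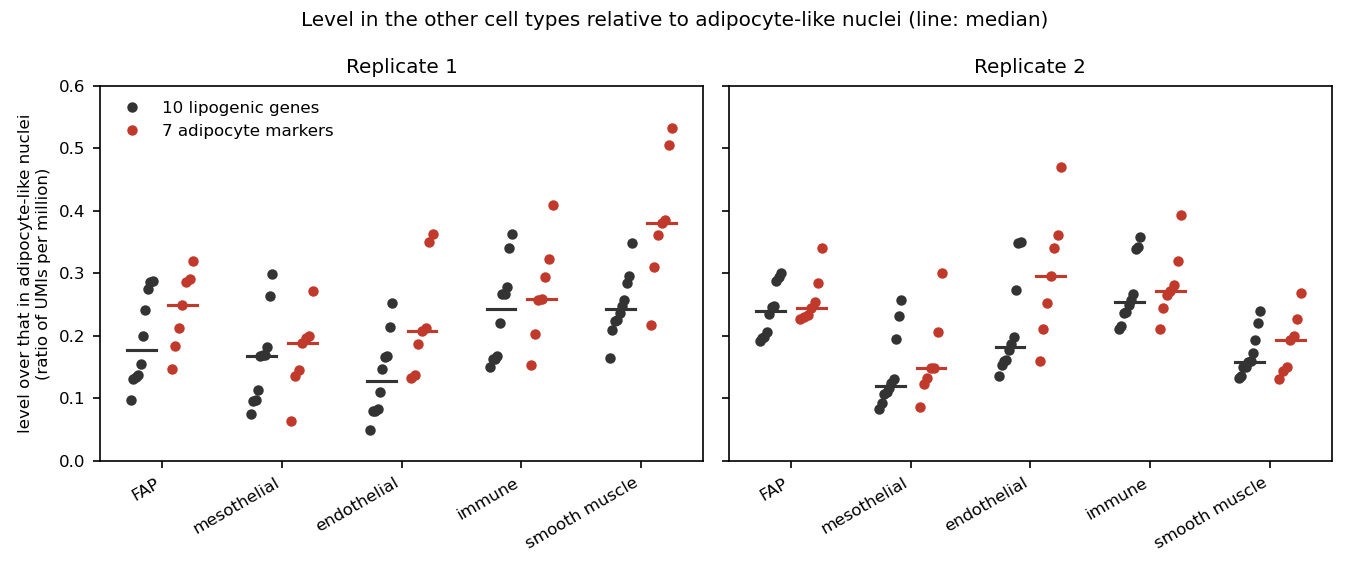
Ratio of the level in each of 5 other cell types to that in adipocyte-like nuclei of the same mouse, for the 10 lipogenic genes and the 7 adipocyte markers, with the median as a line and 1 panel per mouse. The line of the lipogenic genes is below that of the markers in each type, for example 0.129 against 0.208 in endothelial-like nuclei of replicate 1.

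The rest of the pathway was read from 8 lists in the same edgeR fit of adipocyte-like nuclei against the other types. All 9 genes of the carbon supply list were higher, with a median log2 fold change of 2.13. They were led by hexokinase *Hk2* (2.95), the mitochondrial pyruvate carrier subunit *Mpc1* (2.72) and the insulin-responsive glucose transporter *Slc2a4* (2.41). The list includes *Pdk4*, a kinase that restrains pyruvate dehydrogenase and is not itself a supplier. The 6 NADPH genes were higher (median 1.75), with the pentose phosphate enzymes *Tkt* at 2.48 and *Pgd* at 2.32. Of 10 genes for desaturation and further elongation, 8 were higher (median 1.43), the desaturase *Scd1* among them at 2.20, and *Elovl1*, which elongates very long chains, was lower at -0.74. All 6 esterification genes, which join fatty acids into triglyceride, were higher (median 2.72), with *Acsl1* at 3.20 and *Gpam* at 2.83. All 6 tested of 8 listed cholesterol genes were higher (median 2.22).

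The control layer was mixed. Among 15 partners of SREBP, ChREBP and LXR, 7 were higher (median 0.47): the retention protein *Insig1* at 2.63, the coactivator *Ppargc1b* at 2.46, the ChREBP partner *Mlx* at 2.44, *Cebpa* at 1.85, the Spot 14 paralogue *Mid1ip1* at 1.65, LXR alpha *Nr1h3* at 1.52 and *Srebf2* at 0.91. The SREBP escort *Scap* (-0.03) and the proteases *Mbtps1* (-0.06) and *Mbtps2* (0.19) did not pass. Of 9 genes that restrain acetyl-CoA carboxylase or remove malonyl-CoA, 5 were higher (median 0.91), with the AMPK subunits *Prkaa2* at 1.58 and *Prkag2* at 1.41 and malonyl-CoA decarboxylase *Mlycd* at 1.30. Of 8 oxidation genes tested, 7 were higher (median 1.29) and *Cpt1a*, a carnitine palmitoyltransferase that malonyl-CoA inhibits, was lower at -1.99. *Cpt1b*, also on the oxidation list, had 0 UMIs in each cell type of both libraries and was not tested. Whether the counting registers this gene was not tested, so the 0 is not read as absence of its RNA. The shares of all genes tested were 29.3% higher and 31.4% lower.

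Adipocyte-like nuclei split into a white subcluster of 7666 nuclei and a thermogenic-like one of 872, drawn without the members as features. *Ucp1*, the uncoupling protein of thermogenic fat, was at 118 and 82.2 CPM in the latter against 6.22 and 2.15 in the white subcluster. The subclusters came from the same counts, so that p values describe their separation. Over 15460 genes, edgeR called 12.0% in either direction (5.93% higher and 6.05% lower), and 2 of the 10 members passed, both higher in the thermogenic-like nuclei. *Acacb* had 2114 and 2770 CPM there against 853 and 1884 in the white subcluster, without overlap and with each mouse moving the same way. Its log2 fold change was 1.00 (SE 0.13, edgeR adjusted p = 1.6e-12), or 1.38 and 0.64 in each mouse alone. *Elovl6* had 3271 and 2126 CPM against 1733 and 2241, which overlap. Its log2 fold change of 0.49 (SE 0.13, edgeR adjusted p = 0.00267) came from replicate 1, with 0.98 there and 0.0055 in replicate 2.

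Without the library as a block, the adjusted p of *Acacb* was 0.596 and that of *Elovl6* 0.812, so both calls rest on the pairing of subclusters within a mouse, and 0 members reached an unadjusted p under 0.05. DESeq2 with the block called *Acacb* only. The other 8 members did not pass, with log2 fold changes from -0.21 for *Me1* (4724 and 6020 against 6121 and 6893 CPM) to 0.20 for *Fasn*. *Acaca* had 13775 and 15677 CPM in the thermogenic-like nuclei against 12974 and 16874. The ratio of *Acacb* to *Acaca* UMIs was therefore 0.154 and 0.177 in the thermogenic-like and 0.0657 and 0.112 in the white subcluster, with no overlap. The transcription factors *Srebf1* (-0.09) and *Mlxipl* (0.06) had values within 1 SE of 0.

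**Figure D3:**
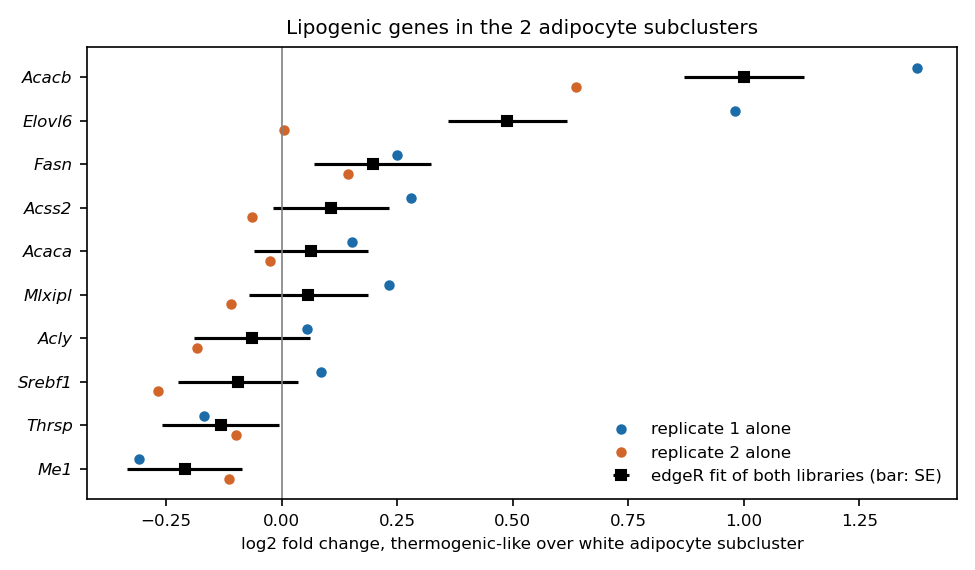
Log2 fold change of the 10 lipogenic genes in the thermogenic-like over the white adipocyte subcluster, with the edgeR estimate and its SE in black and the value of each mouse alone in colour. *Acacb* lies at 1.00 with both mice above 0, while *Elovl6* at 0.49 has replicate 2 at 0.0055.

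Of the lists, oxidation stood with *Acacb* in the thermogenic-like subcluster, with 7 of 8 genes tested higher (median 0.91; 5.93% of all genes were higher), led by *Hadhb* at 1.43 and *Hadha* at 1.41, which form the trifunctional protein. The gene that did not pass was *Cpt1a*, a carnitine palmitoyltransferase that malonyl-CoA inhibits. It stood at 4.11 and 4.47 CPM in the thermogenic-like against 10.01 and 7.36 CPM in the white subcluster. Its log2 fold change was -0.78 (edgeR adjusted p = 0.319), on 3 and 24 UMIs in the thermogenic-like subcluster. Of the carbon genes, 6 of 9 were higher (median 0.41), with the pyruvate dehydrogenase kinase *Pdk4* at 2.04. *Pdk4* restrains pyruvate dehydrogenase, so its rise is not read as more carbon supply. Without the block, edgeR called 1 of the carbon and 0 of the oxidation genes (5 of the latter at an unadjusted p under 0.05), and DESeq2 with the block called 3 and 5. Of the 6 NADPH genes 0 passed by edgeR (median 0.16), with 1 at an unadjusted p under 0.05 and 0 by DESeq2. Of the 6 esterification genes, *Agpat2* was higher at 0.43 and *Gpam*, the acyltransferase of the first step, lower at -0.84. *Ppargc1b* was higher at 0.86 and *Mid1ip1* lower at -0.44 among the 15 partners, and 1 brake, *Prkab1*, was higher at 0.78. In desaturation and elongation *Hsd17b12* and *Hacd2* were higher, and 1 of 7 cholesterol genes tested, *Lss*, was lower. The calls in these 5 lists were all lost by edgeR without the block, where 1 gene each of esterification and of the partners reached an unadjusted p under 0.05 and 0 of the other 3 lists did. DESeq2 with the block called 1 gene each in esterification, the partners and desaturation and elongation, and 0 brakes and cholesterol genes.

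A finer clustering of all nuclei, at a resolution of 0.3, gave 5 adipocyte subclusters with at least 20 nuclei in each library. In it the lipogenic genes separated more. An adipocyte subcluster of 22 nuclei was too small to test. The adipocyte-like nuclei differed from those above, since an unnamed cluster of 2570 nuclei with 4 of 7 adipocyte markers was left out. Its median was 1520 UMIs. A subcluster of 835 nuclei had 7 of 10 members higher than the mean of the others, *Acss2*, *Elovl6*, *Acacb*, *Mlxipl*, *Me1*, *Acly* and *Acaca*, where 2.28% of 14447 genes tested were higher, with the 10 members summing to 56821 and 59040 CPM against 34486 to 43856 in the other 4. *Me1* reached 9901 and 10066 CPM there, and *Acss2* 6691 and 6843 CPM. *Fasn*, *Srebf1* and *Thrsp* did not pass there. Another subcluster had 4 members lower, *Acss2*, *Elovl6*, *Acacb* and *Fasn* (1.15% of genes were lower there). The thermogenic-like subcluster of this division, of 925 nuclei, had *Elovl6* and *Acacb* higher (5.13% of genes) and *Me1* lower (4.13%). Of the remaining subclusters, 1 had *Acaca* lower (2.60%) and 1 *Elovl6* and *Acacb* lower (0.934%). Since each was set against the mean of the others, the high values of 1 subcluster enter the rest. The members were left out of the features here too.

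Whether the members vary together from nucleus to nucleus was read at equal depth, in adipocyte-like nuclei with at least 3000 UMIs thinned to 3000, which left 837 nuclei of replicate 1 and 4749 of replicate 2. The values are Pearson correlations of log(1 + UMI) across nuclei of 1 library, which share its depth and free RNA, and stand as a description. The median of the 45 pairs was 0.248 and 0.232, and 43 and 45 pairs were above 0. Across all 9590010 pairs of 4380 genes the median was 0.00041 and 0.00036, and 0.00457% and 0.00244% of those pairs lay above the members' median. Those genes entered at a mean of at least 0.1 UMI per thinned nucleus. The members averaged 2.97 to 42.1 UMIs in replicate 1 and 2.73 to 50.5 in replicate 2. The genes were not matched to the members on level, so these shares do not compare genes of equal counts. Ranked by the lower of the 2 mice, the highest pairs were *Acss2* with *Me1* at 0.543 and 0.509, and *Me1* with *Acaca* at 0.512 and 0.497, while in replicate 2 alone *Acly* with *Acaca* (0.515) and *Acss2* with *Acaca* (0.510) were above them. The lowest by the same rule, which replicate 1 sets, were *Acaca* with *Srebf1* at -0.069 and 0.105, and *Acaca* with *Thrsp* at -0.033 and 0.108. In replicate 2 alone the lowest was *Acacb* with *Srebf1* at 0.072. The 7 adipocyte markers had a median over 21 pairs of 0.030 and 0.0030, and 5 thermogenic markers, which differ between the subclusters, 0.187 and 0.201. These sets differ in counts, since the adipocyte markers stood between 690 and 3823 CPM in replicate 1 and between 361 and 4398 in replicate 2, against 994 to 13064 and 888 to 16696 for the members, and they were not matched on level.

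Within the pathway, the members were grouped after the values were seen, and the division was less clear in replicate 1. Among *Acly*, *Acss2*, *Me1*, *Acaca*, *Acacb*, *Elovl6* and *Mlxipl*, the 21 pairs had a median of 0.331 and 0.373, with no pair under 0.196 in replicate 1 or 0.265 in replicate 2. The 3 pairs among *Fasn*, *Srebf1* and *Thrsp* had a median of 0.191 and 0.151, and the 21 pairs between these groups 0.146 and 0.135, with the highest at 0.396 and 0.256. *Fasn* did not keep to this division in replicate 1, where its correlation with *Elovl6* was 0.396, with *Acly* 0.3595 and with *Acacb* 0.335, and where it followed the sum of the other 9 members (0.345) more closely than *Mlxipl* did (0.329). In replicate 2 these sums gave 0.213 for *Fasn* and 0.419 for *Mlxipl*. *Fasn*, *Srebf1* and *Thrsp* are also the 3 shortest members and those higher in both mice in nuclei with more mitochondrial UMIs. From the lowest to the highest tertile of that share, *Fasn* went from 9.12 to 13.5 UMIs in replicate 1 and from 7.17 to 8.34 in replicate 2, *Thrsp* from 7.73 to 11.5 and from 5.29 to 6.42, and *Acaca* from 47.7 to 37.1 and from 54.8 to 45.3. The part of length and of the mitochondrial share in this division was not tested. *Mlxipl* stood with 6 of the 7 enzymes and less with *Fasn* (0.157 and 0.129). Its median over its 9 pairs was 0.229 and 0.286, while *Srebf1* had 0.0463 and 0.119. These 2 genes were not matched on level, with a mean of 4.74 and 5.77 UMIs for *Mlxipl* and 5.41 and 2.73 for *Srebf1*. All 9 pairs of *Mlxipl* and 8 of the 9 pairs of *Srebf1* were above 0 in both mice. The promoters printed above come from both groups, and CCAAT was in windows of all 3 of *Fasn*, *Srebf1* and *Thrsp* and of 5 of the other 7 members.

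**Figure D4:**
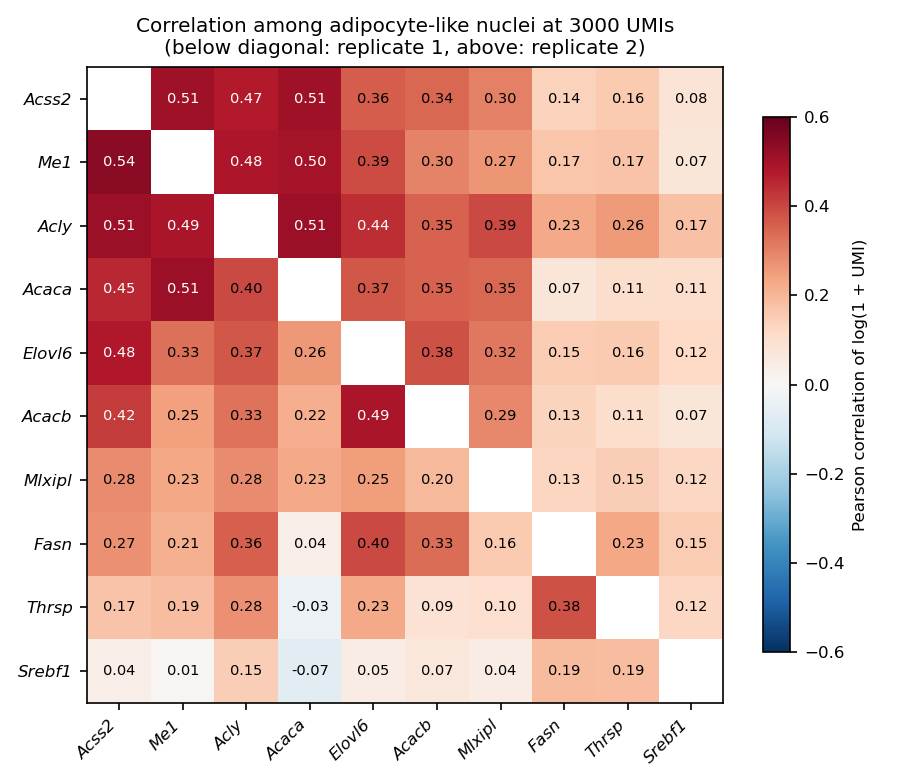
Pearson correlation of log(1 + UMI) for the 45 pairs of lipogenic genes among adipocyte-like nuclei at 3000 UMIs, with replicate 1 below and replicate 2 above the diagonal, from blue (negative) to red (positive). The block of *Acss2*, *Me1*, *Acly* and *Acaca* is darkest, reaching 0.543, and the row of *Srebf1* is palest.

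At 3000 UMIs a nucleus of replicate 1 held 126 UMIs of the 10 members on average and 132 in replicate 2. The 10th and 90th percentiles were 75 and 183.4 in replicate 1 and 73 and 189 in replicate 2, a ratio of 2.45 and 2.59, and the variance was 14.2 and 15.4 times the mean. Nuclei were parted into tertiles by the sum of the other 9 members, to give each gene's range. *Elovl6* had the highest ratio of the highest to the lowest tertile, 3.44 and 3.17, from a mean of 2.46 UMIs in the lowest to 8.46 in the highest tertile in replicate 1 and from 3.11 to 9.87 in replicate 2. *Acss2* went from 6.21 to 18.3 and from 9.14 to 20.7 UMIs, and *Me1* from 10.5 to 26.96 and from 11.6 to 28.2. *Acaca*, the most abundant, went from 33.3 to 50.1 and from 37.9 to 61.7. *Fasn* moved by a ratio of 1.48 and 1.13, *Thrsp* by 1.34 and 1.20 and *Srebf1* by 1.09 and 1.20. *Mlxipl* moved by 1.63 and 1.88 and so ranged more widely than *Srebf1*, the other transcription factor, in both mice.

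The median correlation was also taken within parts of each library. In the white subcluster the median was 0.268 and 0.257, and in the thermogenic-like one 0.0849 and 0.156, from 112 and 678 nuclei. In tertiles of nuclei by their UMIs before thinning it ran from 0.226 to 0.267 in replicate 1 and from 0.218 to 0.240 in replicate 2. In tertiles by mitochondrial share it ran from 0.235 to 0.277 and from 0.228 to 0.246. It was 0.149 and 0.164 at 1000 UMIs, with 1918 and 6620 nuclei, and 0.309 and 0.272 at 5000, with the 376 and 3193 nuclei of that depth, so that depth and nuclei changed together.

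Among 4370 other genes, the 15 whose counts followed the summed members best were ranked by the lower of the 2 mice. *Prune2* led with r of 0.509 and 0.465, followed by *Pgm3*, an enzyme of hexosamine synthesis, with 0.496 and 0.446. *Pgm3* lies on the same strand of chromosome 9 as *Me1*, with 7.965 kb between the end of *Me1* and its own start, and correlated with *Me1* at 0.462 and 0.485, its highest value among the members. Then came the transketolase *Tkt* (0.407 and 0.435), the glycogen-targeting phosphatase subunit *Ppp1r3b* (0.393 and 0.446) and *Scd1* (0.491 and 0.361). *Scd1* followed *Elovl6* at 0.589 and 0.328 and *Fasn* at 0.532 and 0.288. *Gpam* (0.286 and 0.396), *Mpc1* (0.275 and 0.377) and the citrate carrier *Slc25a1* (0.254 and 0.253) were also among the 15, as were *Dcaf6*, which overlaps *Mpc2* on the opposite strand, and the prostaglandin receptor *Ptger3* (0.261 and 0.277).

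Of the lists, 8 of 8 carbon genes, 9 of 9 for desaturation and elongation and 6 of 6 for cholesterol synthesis with enough UMIs correlated above 0 with the summed members in both mice, beside 31.3% of all genes. The medians were 0.190 and 0.181 for carbon supply, 0.158 and 0.144 for desaturation and elongation, and 0.108 and 0.0974 for cholesterol synthesis. Of the 6 NADPH and the 6 esterification genes, 5 each were above 0 in both mice. Among the partners of the transcription factors only 4 of 12 were, and of the brakes 1 of 5. Oxidation had 3 of 7. The adipocyte markers went the other way, with 5 of 7 below 0 in both mice beside 36.2% of all genes, *Adipor2* being the exception above 0 (0.118 and 0.223).

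The 2 mice differed in some members. Among 9213 genes with at least 10 CPM in adipocyte-like nuclei, the median log2 ratio of replicate 1 to replicate 2 was -0.12. *Srebf1* had a ratio of 1.05 on this scale, above 95.3% of those genes, *Thrsp* 0.82, *Fasn* 0.62 and *Acly* 0.16, so that 4 of 10 members were higher in replicate 1. *Acacb* was the lowest at -1.02, with 0.966% of genes below it, and the other 5 lay between -0.38 and -0.18. The same 4 were higher with mitochondrial UMIs left out of the totals, a setting chosen after the data were seen. *Mlxipl* and *Srebf1* changed order, with a ratio of *Mlxipl* to *Srebf1* UMIs of 0.849 in replicate 1 and 2.14 in replicate 2. With 1 library per mouse there is no test of this difference.

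This pattern moved with gene length and with the mitochondrial share, though not for each member. *Thrsp*, *Fasn* and *Srebf1* are the 3 shortest members and had the 3 highest ratios. Across the members, Spearman's rho of gene length with the log2 ratio of the mice was -0.588, and across 9187 genes -0.515, where genes are not independent replicates. Within each library, *Thrsp* was higher in the tertile of adipocyte-like nuclei with the most mitochondrial UMIs than in the lowest tertile, by a log2 ratio of 0.58 in replicate 1 and 0.28 in replicate 2. *Fasn* was higher by 0.57 and 0.22 and *Srebf1* by 0.26 and 0.09, while *Acaca* stood at -0.36 and -0.27. *Acacb*, the lowest between the mice at -1.02, was at -0.01 and -0.23 between these tertiles. Other members did not follow their length. *Elovl6*, with 106 kb, was at 0.38 in replicate 1, above *Srebf1*, and at -0.17 in replicate 2, and *Mlxipl*, the shortest after these 3 with 49.9 kb, was at -0.27 and -0.29, the lowest of the members in replicate 2. The rho of length with this ratio was -0.60 and -0.527 across members and -0.326 and -0.136 across all genes. The ratio of the other cell types to adipocytes also ran with length among members (-0.855 and -0.818), though not across all genes (0.143 and 0.135). The part of nuclear integrity or free RNA in the levels of the short members was not tested.

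**Figure D5:**
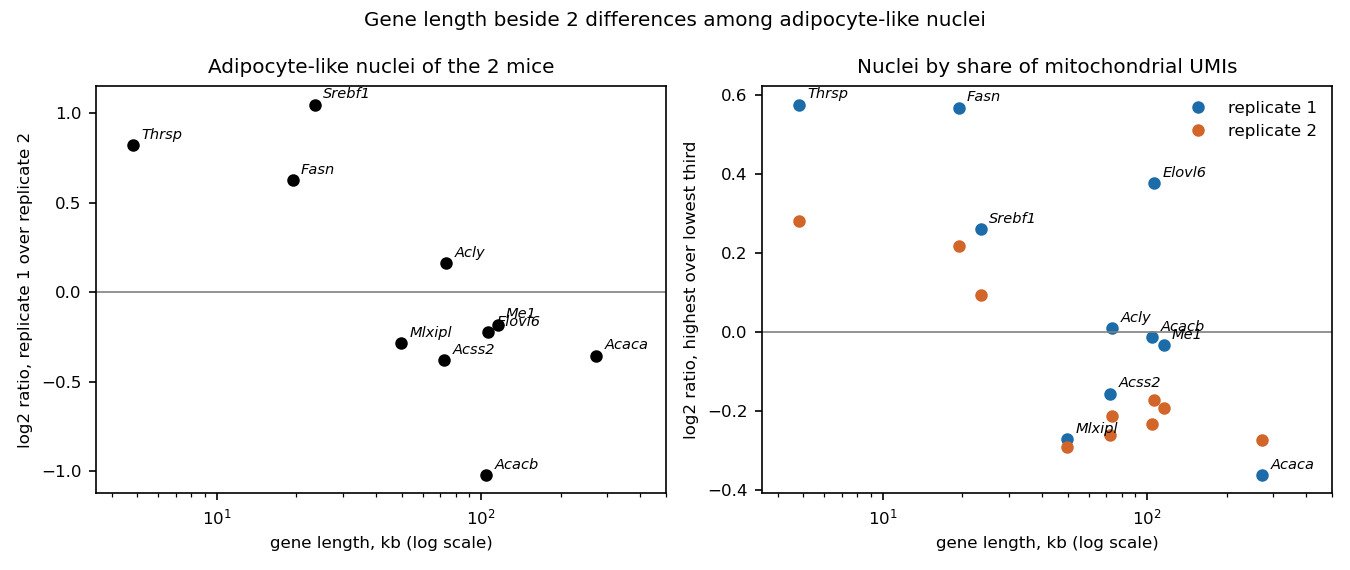
Gene length (kb, log scale) of the 10 lipogenic genes against the log2 ratio of replicate 1 to replicate 2 in adipocyte-like nuclei (left) and against the log2 ratio of the tertile of nuclei with the most to that with the fewest mitochondrial UMIs (right, coloured by mouse). *Thrsp*, *Fasn* and *Srebf1*, of 4.80 to 23.5 kb, lie above 0 in both panels, and *Acaca* with 272 kb below, while on the right *Elovl6* with 106 kb is at 0.38 and -0.17 and *Mlxipl* with 49.9 kb at -0.27 and -0.29.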

How the data were processed

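Single-nucleus RNA-seq of VAT from 2 young mice was analysed. The authors aligned reads to GRCm39 with CeleScope and deposited counts, whole UMIs of 56980 genes in 7344 and 17148 called nuclei, without normalization. The annotation version is not given in the sources used here, and positions were taken from GENCODE vM39. No column of the authors' own comparisons was used.

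Nuclei were kept above 500 genes and 1000 UMIs and below a mitochondrial share of 15%. From 1000 variable genes without the members and pathway lists, 30 components (16 for subclusters) were integrated across libraries with Harmony, rewritten in numpy 2.4.6, and clustered by the Leiden method (leidenalg 0.10.2, scanpy 1.11.5, resolution 0.1, 20 neighbours, seed 1). This clustering was chosen among 9 versions, and the naming rule was set, after clusters had been seen: at least 3 markers, with a share of 0.5 of those of a type at a log2 fold of at least 1 and present in 5% of nuclei. No nuclei were removed as doublets in the values given, and an alternative removed the 6% with the highest Scrublet scores. Adipocyte-like nuclei had median UMI counts of 2642 in replicate 1 and 4828 in replicate 2. UMIs were summed per library and cell type and tested with edgeR 4.0.16 in R 4.3.3 (TMM, filterByExpr, quasi-likelihood, Benjamini-Hochberg adjustment over all genes tested). The library was a block because all cell types of 1 number come from 1 mouse. The test was checked on simulated counts. Poisson intervals cover counting error at 95%. Correlations used genes with a mean of at least 0.1 UMI.

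The members, lists, comparisons and tests were chosen with earlier results of these data known. Named are the members, genes of the lists, cell type markers and the 15 genes most like the summed members. *Rai1*, and the genes of negative correlation among the other observations, were named after their values were seen. Alternatives were DESeq2 1.42.0, no count filter, no block, other clusterings, a 5% mitochondrial limit, leaving out each replicate and, for correlations, other depths and measures.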

Additional observations from a re-analysis of the deposited data

How the results depend on the processing

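Under 11 alternatives, all 10 members remained higher in adipocyte-like nuclei, with log2 fold changes of single members from 1.89 to 3.96 and, where tested, adjusted p up to 0.000209. The counts of members lower in other cell types were less stable. In FAP-like nuclei the count of 1 became 0 without the replicate block, 7 with the 5% mitochondrial limit, 10 at resolution 0.3, 5 without Harmony, 4 with members and lists kept as features and 10 with the highest doublet scores removed. In mesothelial-like nuclei 10 became 5 without the block and 9 with DESeq2, with doublet scores removed and with the subcluster of mixed markers left out. In endothelial-like nuclei 7 became 0 without the block, with the 5% limit, at resolution 0.3, without Harmony and with features kept, 4 with doublet scores removed and 8 without the filter, while 1 member was higher at resolution 0.3 and 2 without Harmony. The endothelial-like cluster without Harmony, of 574 nuclei, held 4 of 7 adipocyte markers, against 0 of 7 in the main clustering, of 441 nuclei. In immune nuclei 0 became 1 without Harmony and 4 with doublet scores removed. In smooth muscle-like nuclei 5 became 9 without the filter, 0 without the block, 10 with features kept, 3 with doublet scores removed, 6 at resolution 0.3, 7 without Harmony and 4 with that subcluster left out, and under the 5% limit too few nuclei were left to test. Of the 2 members that differed between adipocyte subclusters, 1 was left with DESeq2, without the filter and with the 5% limit, and 0 without the replicate block. Without Harmony (3 subclusters) the count was 1, *Acacb* lower in a subcluster with 1758 of its 2758 nuclei from replicate 1. In the thermogenic-like subcluster of that setting 0 members passed by edgeR (1 at an unadjusted p under 0.05). At resolution 0.3 (5 subclusters tested) 8 members differed, and 6 with doublet scores removed (3 subclusters). The adjusted p of *Acacb* ranged from 5.4e-11 to 0.596 and that of *Elovl6* from 0.00401 to 0.812. The median correlation, 0.240 as the mean of both mice, was 0.157 at 1000 and 0.291 at 5000 UMIs, 0.221 by Spearman, 0.202 untransformed, 0.262 within the white and 0.121 within the thermogenic-like subcluster and 0.267 with the 5% limit, and 0.232 to 0.248 with 1 mouse left out. The cause of these changes was not tested. With 1 mouse left out, fold changes stand without a test. Replicate 1 held 837 nuclei deep enough for the correlations, and with 2 mice a small difference may be missed.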

Other observations

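Genes that ran against the summed members among adipocyte-like nuclei included *Nnat* (r of -0.421 in replicate 1 and -0.315 in replicate 2), *Car3*, a carbonic anhydrase abundant in fat (-0.375 and -0.399), *Slit3* (-0.346 and -0.275) and *Lpl*, which encodes lipoprotein lipase and frees fatty acids from circulating triglyceride (-0.256 and -0.339). They are examples among the 15 lowest by the higher of the 2 values, chosen after their values were seen, and stand as a description over 837 and 4749 nuclei. *Pck1*, which serves glyceroneogenesis in fat, was at -0.287 and -0.261, and the lipid droplet protein gene *Cidec* at -0.235 and -0.197. In the finer clustering, *Car3* was at 2524 and 2183 CPM in the subcluster with 7 members higher and between 3170 and 5144 CPM in the other 4 tested.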
